A study of Mus musculus with 12 samples.

Results

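The genes of the cytosolic ribosomal proteins were examined in mouse hearts that lacked or kept Trex1 and carried STING in 3 states. Members were all genes whose symbol on the array starts with Rpl or Rps and a digit, together with Rpsa, Rplp0, Rplp1 and Rplp2, and without the Rps6k kinases and Rpl29. This symbol rule took 64 of the 19057 genes named by 1 symbol, on 94 of 45281 probes, and each gene was read from its 1 probe of highest mean signal. A total of 58 members passed the detection filter and were tested among 15561 features. Of these, 33 belong to the large subunit and 23 to the small subunit. The other 2, Rps19bp1, which encodes a protein that binds Rps19, and Rps23rg1, a retrotransposed copy of Rps23, fall under the symbol rule and encode no subunit protein. The 6 members that did not pass were Rpl6, Rpl14, Rpl17, Rpl39l, Rps20 and Rps23, each with 1 probe that was detected on 0 arrays.

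The hearts came from untreated mice of C57BL6/129Sv strain and either carried Trex1 (wild type, WT) or lacked it (KO), on STING +/+, +/- or -/-, with 2 arrays for each of the 6 genotypes. Trex1 is an exonuclease that clears DNA from the cytosol. STING, the product of Sting1, is an adaptor protein that passes on the signal of such DNA and leads to type I interferon. The genotypes allow the effect of losing Trex1 to be read with full, reduced and absent STING. The labels give no age, sex or Trex1 allele, and are silent on whether both samples of a genotype are from different mice, so p-values measure the spread between these samples, which may be technical.

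A cytosolic ribosome is built from ribosomal RNA and one copy of most ribosomal proteins, arranged in a large subunit, which joins amino acids, and a small subunit, which reads the mRNA. Ribosomal protein mRNAs are among the most abundant of a cell, and most begin with a terminal oligopyrimidine (TOP) stretch through which mTORC1 controls their translation. Heart and skeletal muscle use a paralog, Rpl3l, in place of Rpl3 in part of their ribosomes, and Rpl3 lies near the centre where peptide bonds form.

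Promoters of the members that passed the test between Trex1 KO and WT on STING +/+ are shown first, so that the 1 gene that fell can be set beside those that rose. RefSeq promoters (GRCm38.p6) were found for 50 of the 58 members, and for 9 of these 11. Each line below covers 150 bases before and 15 after the most upstream start in the table. Capitals mark one of 5 motifs on either strand. These are the ETS core with the letters CCGGAA, the YY1 core with the letters AAGATGG, the SP1 box with the letters GGGCGG, the usual TATA motif with the letters TATAAA, and the muscle M-CAT core with the letters GGAATG.
Rpl3l, chr17:24727676-24727840, + strand: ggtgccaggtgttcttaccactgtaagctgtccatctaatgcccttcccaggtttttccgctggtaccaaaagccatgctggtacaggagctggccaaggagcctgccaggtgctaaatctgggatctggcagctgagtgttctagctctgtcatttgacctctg
Rpl12, chr2:32961562-32961726, + strand: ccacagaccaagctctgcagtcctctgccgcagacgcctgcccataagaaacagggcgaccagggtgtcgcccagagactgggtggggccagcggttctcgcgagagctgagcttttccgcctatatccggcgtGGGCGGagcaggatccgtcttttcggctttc
Rpl13a, chr7:45128731-45128895, - strand: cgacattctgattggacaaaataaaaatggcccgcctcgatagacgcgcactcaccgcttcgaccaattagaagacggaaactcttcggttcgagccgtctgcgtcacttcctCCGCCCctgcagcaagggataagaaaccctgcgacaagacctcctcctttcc
Rpl39, chrX:37085208-37085372, - strand: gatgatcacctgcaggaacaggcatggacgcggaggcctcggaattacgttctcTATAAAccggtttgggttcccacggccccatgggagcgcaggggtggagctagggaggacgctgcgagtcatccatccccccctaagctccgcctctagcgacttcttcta
Rps19, chr7:24884442-24884606, + strand: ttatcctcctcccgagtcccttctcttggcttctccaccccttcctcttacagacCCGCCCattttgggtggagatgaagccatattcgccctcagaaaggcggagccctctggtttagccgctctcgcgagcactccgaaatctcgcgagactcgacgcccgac
Rps27l, chr9:66945936-66946100, + strand: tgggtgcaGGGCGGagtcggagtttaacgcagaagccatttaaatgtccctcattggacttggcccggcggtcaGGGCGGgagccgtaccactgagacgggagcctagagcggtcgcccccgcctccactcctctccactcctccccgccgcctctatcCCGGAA
Rplp0, chr5:115559317-115559481, + strand: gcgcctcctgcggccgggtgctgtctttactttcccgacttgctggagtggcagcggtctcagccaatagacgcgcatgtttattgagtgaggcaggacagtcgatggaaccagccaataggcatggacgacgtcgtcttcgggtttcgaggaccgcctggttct
Rps12, chr10:23787195-23787359, - strand: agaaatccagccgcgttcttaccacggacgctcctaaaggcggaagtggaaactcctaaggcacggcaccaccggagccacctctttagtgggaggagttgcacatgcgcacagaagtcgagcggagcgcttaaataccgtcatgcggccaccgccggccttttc
Rps26, chr10:128626492-128626656, - strand: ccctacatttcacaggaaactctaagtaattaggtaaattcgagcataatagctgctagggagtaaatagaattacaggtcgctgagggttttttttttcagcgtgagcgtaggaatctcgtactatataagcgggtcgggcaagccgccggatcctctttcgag

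The windows of Rpl3l, which fell, and of Rplp0, Rps12 and Rps26, which rose, held none of these 5 motifs. Those of Rpl12, Rpl13a, Rps19 and Rps27l held an SP1 box, that of Rps27l also an ETS core, and that of Rpl39 a TATA box. Over the full window of 250 bases before to 50 after the start, the ETS core was found in 52.0% of the 50 members and in 16.7% of all 27025 genes with a promoter. A gene with several starts counted if any of them matched. The SP1 box was found in 66.0% of members and in 38.2% of all these genes, and the YY1 core in 16.0% and 7.28%. Other motifs were less frequent among members. The E-box CANNTG was found in 52.0% of members against 75% of all these genes, the TATA box in 12.0% against 15.7%, and the M-CAT core in 12.0% against 16.6%. The motifs can overlap one another, and a match is a description of letters and not of binding. A TOP start, a C followed by 4 C or T, was present at a start in the table for 16.0% of members and 3.01% of all genes with a promoter.

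Array quality and the targeted genes were checked before the comparisons. Between 38.3% and 44.7% of probes were detected per array, with median signals of 80 to 90.3. Trex1 probe ILMN_3131766, whose position relative to the deletion was not given in the sources used here, had a log2 signal of 6.53 to 7.34 on the 6 WT arrays and of 5.38 to 5.68 on 5 KO arrays. On the array labelled Trex1 KO, STING +/+ replicate 2 it was 6.76, within the WT range, so that this library goes against its label at this probe. The same array had a low signal for Hnrnpa2b1 probe ILMN_2615855, of 5.91 against 8.47 to 11.63 elsewhere. A second Hnrnpa2b1 probe detected on all 12 arrays, ILMN_2771074, was 7.30 there and 7.28 to 8.37 elsewhere, so the probes disagree. Sting1 signals were 7.03 and 6.94 for the group labelled Trex1 KO, STING +/+, 5.71 and 5.15 on Trex1 WT, STING +/+, and 4.67 to 5.02 on the STING -/- arrays. On STING +/- they were 4.79 and 5.24 in Trex1 WT and 5.75 and 5.05 in Trex1 KO. The STING +/- arrays thus overlapped with Trex1 WT, STING +/+ and with STING -/-, while all STING +/+ arrays lay above all STING -/- arrays. Xist was present in both WT samples of STING +/+, in 1 of the KO samples of STING +/+ (replicate 2) and in 1 of the WT samples of STING -/- (replicate 1). Probe ILMN_1241001 of Eif2s3y, on chromosome Y, was 4.35 to 4.45 on the arrays with Xist and 9.79 to 10.57 on the others. By these genes, sex was not balanced between Trex1 WT and KO on STING +/+. A second label gave another STING genotype for 7 of 12 samples, and the title, source and genotype labels were used. Each direction given for Trex1 KO, STING +/+ rests on these 2 libraries as labelled, and is given without replicate 2 where that changes it.

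The tissue label was borne out by 7 of 8 cardiomyocyte markers, which were detected on all arrays. Markers of other cell types differed between these arrays. Summed macrophage and monocyte marker signal (9 of 10 genes measured) was 29152 to 31014 in the group labelled Trex1 KO, STING +/+ and 2931 to 3742 on Trex1 WT, STING +/+. Summed T and NK cell marker signal (7 of 12 genes measured) was 3777 to 4943 and 854 to 886 on these arrays. The cardiomyocyte sum was 155959 to 169891 in the former and 192569 to 200830 in the latter. The fibroblast sum (8 of 8 genes measured) was 9638 to 15555 against 19784 to 25852, the endothelial sum (5 of 6) 1031 to 2371 against 2379 to 2694, and the erythroid sum (3 of 4) 15820 to 35588 against 34073 to 38588. In each of these 3 lists the lower KO value was on replicate 2. The fibroblast genes did not move together between KO and WT on STING +/+. Log2 differences were negative for Gsn (-4.56), Lum (-1.56), Pdgfra (-1.20) and Dcn (-0.85). They were positive for Col1a2 (1.60), Col1a1 (0.74), Tcf21 (0.64) and Col3a1 (0.64), and only Gsn, Lum and Pdgfra passed the test. The skeletal muscle sum (3 of 6) was 52016 to 54013 against 18389 to 19373. In bulk tissue, fewer cells of a type and less RNA per cell cannot be told apart, and the part of these cell markers in the results below was not tested.

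Signals of the members spanned the range of the arrays, from near the detection limit to the brightest probes. The 5 with the highest mean log2 signal were Rplp1 (15.36), a protein of the stalk that recruits elongation factors, Rpl41 (15.27), the smallest protein of the large subunit, and the small subunit genes Rps29 (15.16), Rps2 (15.00) and Rps24 (14.96). Their raw signals reached 54209.7, while the brightest probe of an array had 50315 to 65008.3. The 5 lowest among the tested members were Rpsa (4.83), detected on 3 arrays, Rps23rg1 (5.18), detected on 9, Rps15a (5.75), Rpl22l1 (6.62) and Rpl21 (6.71). Probe signal depends on the probe, so this order does not rank the transcripts. The members with the widest range over the 12 arrays were Rpl3l (2.35 on the log2 scale), Rplp0 (2.31), Rpl13a (2.02), Rpl3 (1.83) and Rps3a1 (1.69).

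Rpl3l was the member with the largest difference between genotypes. Its log2 signal was 14.35 and 14.31 on Trex1 WT, STING +/+, and 12.00 and 12.26 on Trex1 KO, STING +/+. On STING +/- it was 14.24 and 14.34 in Trex1 WT and 13.94 and 14.11 in Trex1 KO. On STING -/- it was 13.82 and 13.89 in Trex1 WT and 14.28 and 13.75 in Trex1 KO. The 2 arrays labelled Trex1 KO, STING +/+ were the lowest of all 12 and overlapped with no other group. Rpl3l was 4.59-fold lower in Trex1 KO than in WT on STING +/+ (log2 difference -2.20 ± 0.21 SE, limma adjusted p 0.000112). It differed by -0.27 ± 0.21 on STING +/- (limma adjusted p 0.688) and by 0.16 ± 0.21 on STING -/- (limma adjusted p 1). The difference between the Trex1 effects on STING +/+ and STING -/- was itself past the threshold (-2.36 ± 0.30, limma adjusted p 0.00173).

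**Figure D1:**
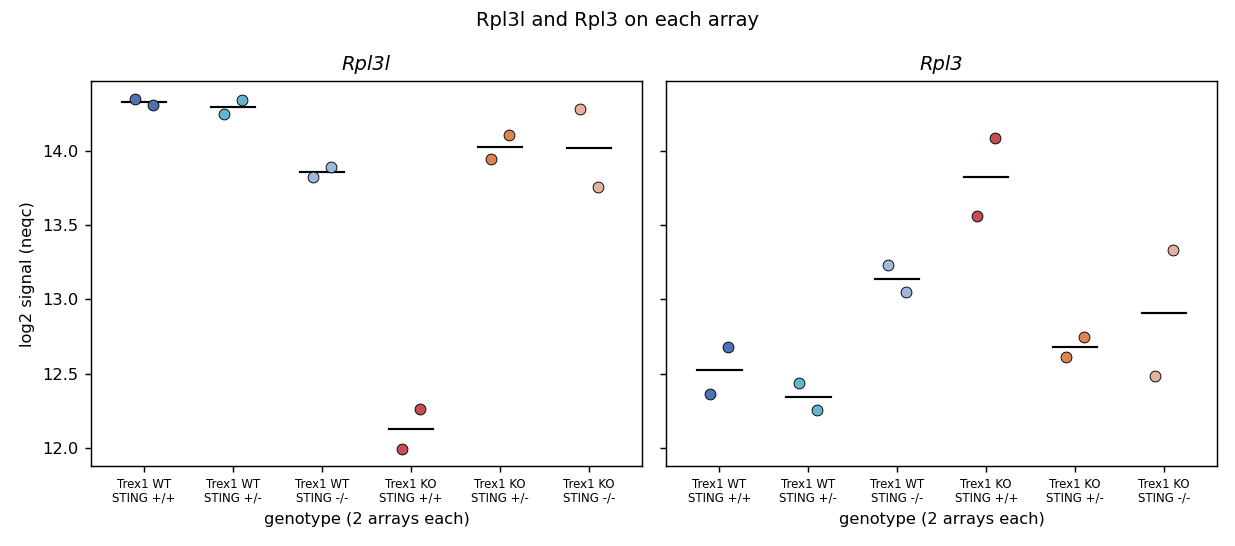
Log2 signal (neqc) of Rpl3l and Rpl3 on each of 12 arrays, by genotype. Points are arrays and bars are means of 2. The 2 Trex1 KO, STING +/+ arrays are the lowest for Rpl3l (12.00 and 12.26) and the highest for Rpl3 (13.56 and 14.08).

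Rpl3, the general form of the same protein, was high where Rpl3l was low. Its log2 signal was 12.37 and 12.68 on Trex1 WT, STING +/+ and 13.56 and 14.08 on Trex1 KO, STING +/+. On STING +/- it was 12.44 and 12.25 in Trex1 WT and 12.61 and 12.75 in Trex1 KO. On STING -/- it was 13.23 and 13.05 in Trex1 WT and 12.48 and 13.33 in Trex1 KO. The 2 arrays labelled Trex1 KO, STING +/+ were the highest of all 12, and the next was a Trex1 KO, STING -/- array. The 2.46-fold rise on STING +/+ passed the test (1.30 ± 0.29, limma adjusted p 0.0107). The difference was 0.33 ± 0.29 on STING +/- (limma adjusted p 0.717) and -0.23 ± 0.29 on STING -/- (limma adjusted p 1). The difference of effects between STING +/+ and STING -/- was 1.53 ± 0.41 (limma adjusted p 0.0445). Leaving out replicate 2 of Trex1 KO, STING +/+ gave a Rpl3 difference of 1.04 that did not pass the threshold, and leaving out replicate 1 of Trex1 WT, STING +/+ gave 1.14, also not past it. Each of these paralogs was measured with 1 probe.

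Across the set, Trex1 KO was compared with WT on STING +/+ first. Past an adjusted p of 0.05, 10 of 58 members were higher and 1 was lower, which is 17.2% and 1.72%. Among all features tested, 11.8% were higher and 9.93% lower, 21.7% in all. The median log2 difference was 0.39 over the members and -0.04 over all features. It was -0.17 over the 332 features with a mean log2 signal over 13, and 0.40 over the 28 members as bright. The median was 0.42 over the 33 large subunit genes, of which 6 rose and Rpl3l fell. Over the 23 small subunit genes it was 0.29, and 4 rose. A further count did not use the test: both Trex1 KO arrays lay above both WT arrays for 36 members (62.1%, against 26.6% of all features) and below them for 3 (5.17%, against 31.4%).

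**Figure D2:**
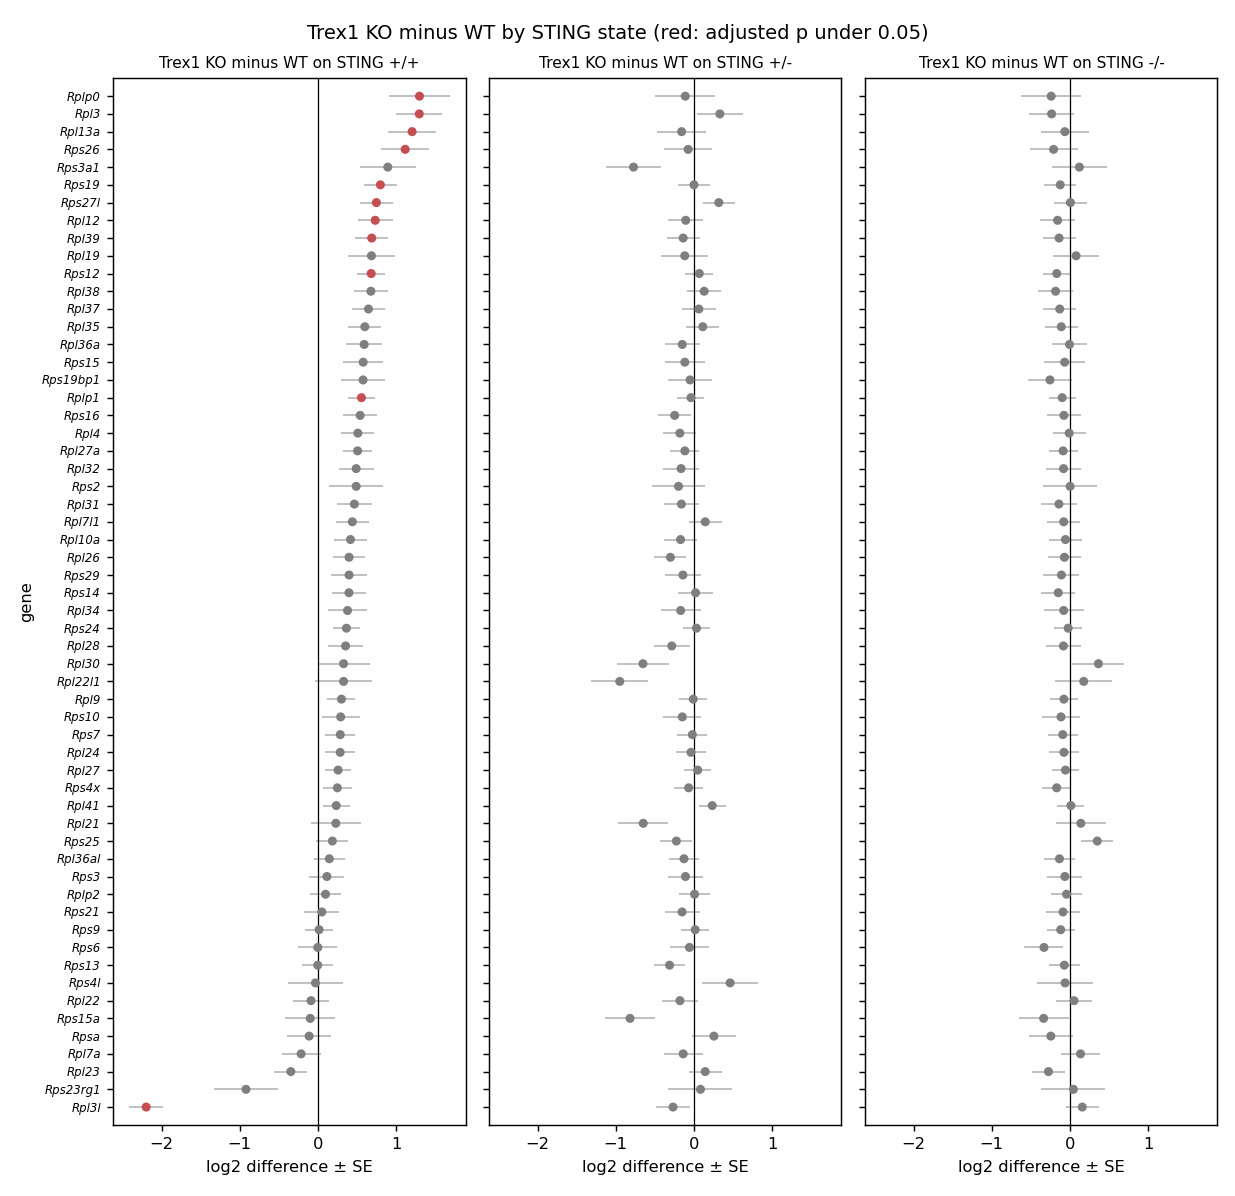
Log2 difference between Trex1 KO and WT for each of the 58 members on STING +/+, +/- and -/-, with SE from the fit of all 12 arrays. Points in red passed an adjusted p of 0.05: 10 higher and Rpl3l lower on STING +/+, and 0 on the other 2 STING states.

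The rises were uneven between the 2 arrays labelled Trex1 KO, STING +/+. Relative to the mean of the Trex1 WT, STING +/+ arrays, the median member was 0.21 higher on replicate 1 and 0.67 higher on replicate 2. The latter is the array with the low signal at 1 Hnrnpa2b1 probe and a Trex1 signal in the WT range. Replicate 2 was the highest of all 12 arrays for 42 of the 58 members. Relative to each gene's mean over 12 arrays, the median deviation was 0.60 there and 0.09 on replicate 1, and -0.15 to 0.06 on the other 10 arrays. Without replicate 2, only Rpl3l of the 11 was past the threshold and the median difference was 0.21. Without replicate 1, the median was 0.67 over the members and 0.01 over all features. The count was also 1 without replicate 1 of Trex1 WT, STING +/+, 3 without its replicate 2, and 7 without either Trex1 WT, STING -/- array. Median scaling in place of quantile normalization gave 29 members past the threshold, with a median of 0.71 over the members and 0.13 over all features. The shares of all features past the threshold in these settings are not given here. These counts therefore do not show whether the members moved apart from other features.

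**Figure D3:**
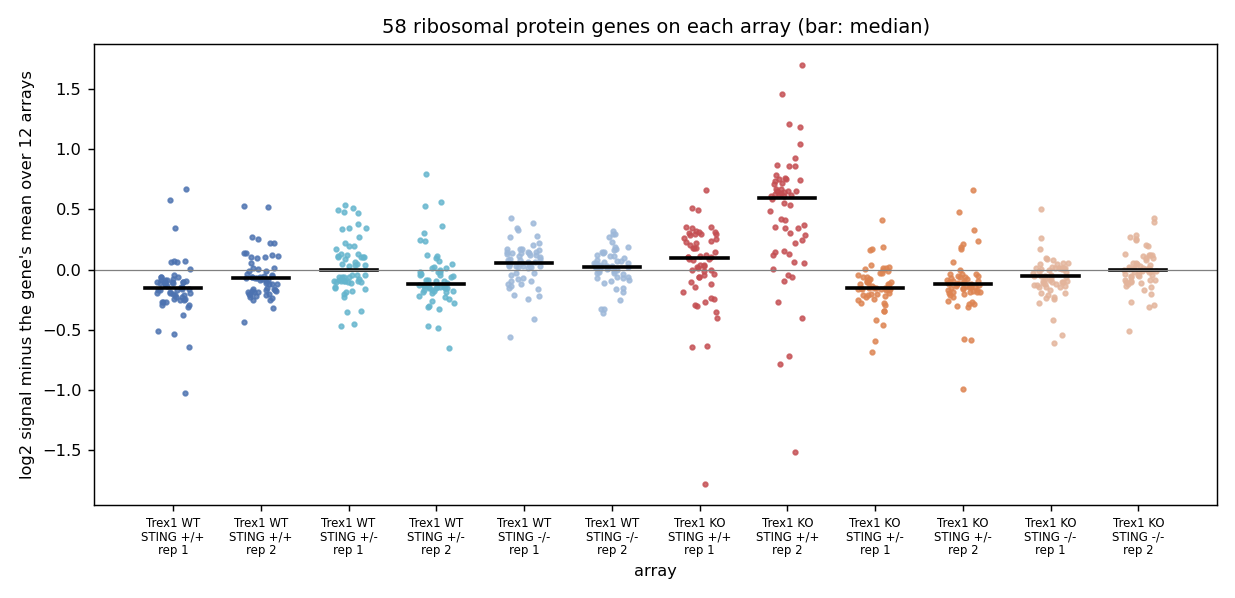
Log2 signal of each of the 58 members on each of 12 arrays, minus that gene's mean over the arrays. Points are genes and bars are medians. The median is 0.60 on Trex1 KO, STING +/+ replicate 2 and 0.09 on replicate 1, and -0.15 to 0.06 on the other arrays.

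Of the stalk genes, whose proteins bring elongation factors to the ribosome, Rplp0, Rplp1 and Rpl12 passed the test and Rplp2 did not. The difference between these members was not tested, and without replicate 2 of Trex1 KO, STING +/+ none of the 4 passed. Rplp0, which anchors the stalk and is often used as a reference gene in PCR, had log2 signals of 7.01 and 7.21 on Trex1 WT, STING +/+ and 7.73 and 9.08 on Trex1 KO, STING +/+. Both KO arrays were above both WT arrays, but the 2 KO arrays lay far apart. The difference was 1.30 ± 0.38 (limma adjusted p 0.0368), and 0.62 without replicate 2 of the KO, not past the threshold. A dim second Rplp0 probe, detected on 3 arrays, gave 0.85 (limma adjusted p 0.098 in a fit of all probes). Rplp1 was 15.11 and 15.20 in WT and 15.65 and 15.78 in KO (0.56 ± 0.17, limma adjusted p 0.0441). For Rplp1 the KO arrays were the 2 highest of all 12. Rplp2, which pairs with Rplp1, was 14.14 and 14.06 in WT and 14.00 and 14.40 in KO, which overlap (0.10 ± 0.20, limma adjusted p 0.774). Rpl12, at the stalk base, was 12.62 and 12.59 in WT and 13.02 and 13.65 in KO (0.73 ± 0.22, limma adjusted p 0.0421).

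Among the other large subunit genes, Rpl13a, a reference gene in many PCR panels and, in human monocytes, a part of the complex that silences inflammatory mRNAs, had log2 signals of 8.84 and 8.88 in WT and 9.58 and 10.55 in KO on STING +/+. The KO arrays lay above every other array, the next being a Trex1 WT, STING +/- array at 9.43. The difference was 1.21 ± 0.31 (limma adjusted p 0.0202) and 0.72 without replicate 2. Rpl39, a small protein that lines the exit tunnel, was 14.00 and 13.88 in WT and 14.43 and 14.82 in KO (0.69 ± 0.21, limma adjusted p 0.0428). Both KO arrays of Rpl39 exceeded all other arrays, of which the highest was 14.21. Rpl38 had 0.68 ± 0.22 and missed the threshold (limma adjusted p 0.0517).

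Of the small subunit, Rps26, which lies at the mRNA exit channel, showed the largest difference. Its log2 signal was 12.09 and 11.97 in WT and 12.69 and 13.60 in KO on STING +/+ (1.12 ± 0.31, limma adjusted p 0.027). One Trex1 WT, STING +/- array reached 12.62, close to the lower KO array. Rps19, a protein needed for maturation of the small subunit, was 13.06 and 13.10 in WT and 13.65 and 14.11 in KO (0.80 ± 0.21, limma adjusted p 0.0205). A second Rps19 probe, dim and detected on 6 arrays, gave 0.14 (limma adjusted p 0.687 in a fit of all probes), so the probes disagree. Rps12 was 14.28 and 14.21 in WT and 14.78 and 15.08 in KO (0.68 ± 0.18, limma adjusted p 0.0229). Its second probe, as bright, gave 0.65 (limma adjusted p 0.037 in a fit of all probes). Rps3a1 had the widest range of the small subunit genes, from 9.81 on a Trex1 WT, STING +/+ array to 11.50 on Trex1 KO, STING +/+ replicate 2, and its 0.89 ± 0.35 did not pass (limma adjusted p 0.101).

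**Figure D4:**
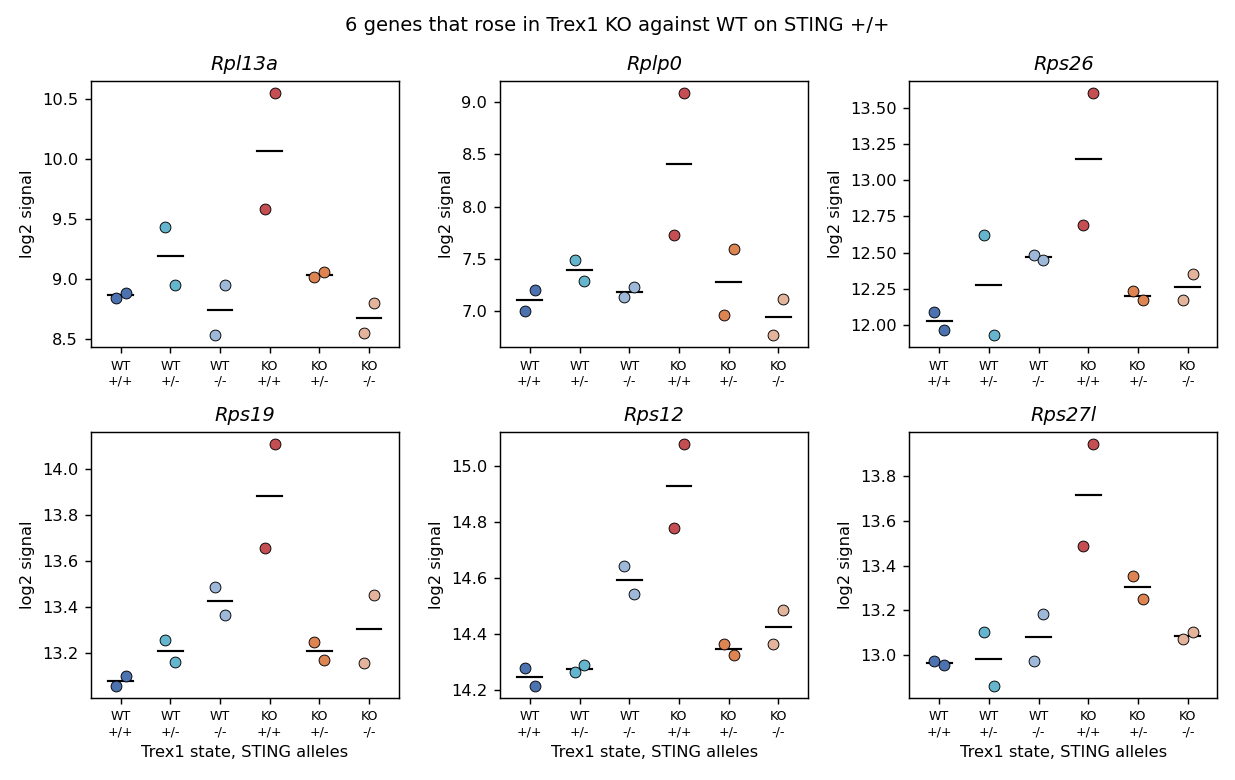
Log2 signal of Rpl13a, Rplp0, Rps26, Rps19, Rps12 and Rps27l on each array, by Trex1 state and STING alleles. Points are arrays and bars are means of 2. In all 6 panels both Trex1 KO, STING +/+ arrays lie above the Trex1 WT, STING +/+ arrays, and replicate 2 is the highest.

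The other paralogs were read in the same way, and differences between partners were not tested. Rps27l, a paralog of Rps27 known as a p53 target, was 12.98 and 12.96 in WT and 13.49 and 13.94 in KO on STING +/+ (0.75 ± 0.21, limma adjusted p 0.0273). On STING +/-, Rps27l was 13.10 and 12.86 in WT and 13.36 and 13.25 in KO, which did not overlap but did not pass the test (0.32 ± 0.21, limma adjusted p 0.607). Differences of the other pairs on STING +/+ did not pass. Rpl22 had -0.09 ± 0.23 and its paralog Rpl22l1 0.33 ± 0.37. Rpl36a had 0.59 ± 0.23 and Rpl36al 0.15 ± 0.19. Rpl7l1 had 0.44 ± 0.21, and Rpl39l was not detected. Rps23rg1 was detected on 0 of the 2 KO arrays and on both WT arrays of STING +/+, where the signal was at least 1.38-fold higher (group means 4.46 and 5.38, limma adjusted p 0.138). For such a bound each dim array takes its smallest detected signal, or the probe's own signal if that is higher. Near-identical copies can bind each other's probes, which was not tested.

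Members that share a chromosome with a targeted gene were read separately, since strain sequence flanking a targeted allele can differ between groups. On chromosome 9 with Trex1 lie Rpl4, Rplp1, Rps25, Rps27l and Rpsa, of which Rplp1 and Rps27l rose. Rpl4 had 0.51 ± 0.21 and Rps25 0.18 ± 0.20 on STING +/+ (limma adjusted p 0.115 and 0.567). On chromosome 18 with Sting1 lies Rps14, which had 0.40 ± 0.22 (limma adjusted p 0.23). On STING -/- none of these passed the test for Trex1 KO against WT.

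With reduced STING, Trex1 KO and WT hearts did not differ past the threshold in any member. On STING +/-, 0 of 58 members passed by limma, where 1.27% of all features did, and 2, Rpl22l1 and Rps15a, had an unadjusted p under 0.05. The median was -0.11 over the members and -0.05 over all features. Both KO arrays lay above both WT arrays for 8 members (13.8%, against 18.9% of all features) and below them for 23 (39.7%, against 25.9%). On STING -/-, 0 of 58 passed by limma, where 0.0129% of all features did, and 0 had an unadjusted p under 0.05. The median was -0.08 over the members and 0.01 over all features. Both KO arrays lay above both WT arrays for 3 members (5.17%, against 15.3% of all features) and below them for 18 (31%, against 13%). No alternative processing changed either count of 0.

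Within Trex1 KO, the hearts with fewer STING alleles were set against STING +/+. These comparisons share the 2 Trex1 KO, STING +/+ arrays with the comparison above and are therefore not independent of it. For STING +/- minus +/+, Rpl3l was higher (1.90 ± 0.21, limma adjusted p 0.0014), while Rpl3 (-1.14 ± 0.29, limma adjusted p 0.0336) and Rpl39 (-0.76 ± 0.21, limma adjusted p 0.0475) were lower. These 3 members stand against 11% of all features past the threshold, 4.25% higher and 6.75% lower. For STING -/- minus +/+, 1 member was higher and 4 lower, where 24% of all features passed, 11.3% higher and 12.7% lower. Rpl3l was higher by 1.89 ± 0.21 (limma adjusted p 0.000222). The lower members were Rplp0 (-1.46 ± 0.38, limma adjusted p 0.0213), Rpl13a (-1.39 ± 0.31, limma adjusted p 0.0099), Rpl3 (-0.91 ± 0.29, limma adjusted p 0.0463) and Rpl39 (-0.68 ± 0.21, limma adjusted p 0.043). The median over the members was -0.42 for STING +/- and -0.34 for STING -/-, against 0.00 and 0.03 over all features. Both STING -/- arrays lay below both STING +/+ arrays for 31 members (53.4%, against 27.6% of all features) and above them for 4 (6.9%, against 30.5%). For STING +/- the counts were 38 below (65.5%, against 24.8%) and 2 above (3.45%, against 24.8%). Without replicate 2 of Trex1 KO, STING +/+ the medians were -0.19 and -0.09, and 1 and 2 members passed. Without its replicate 1 the medians were -0.72 and -0.66. The shares of all features past the threshold with arrays left out are not given here. Counts from such settings therefore do not show whether the members moved apart from other features. Summed atrial marker signal was 33723 and 191662 on the 2 Trex1 KO, STING -/- arrays and 47816 to 49898 on Trex1 KO, STING +/+. The mean log2 of these markers was highest on both Trex1 WT, STING -/- arrays (12.89 and 13.78) and on replicate 2 of Trex1 KO, STING -/- (13.97). Replicate 2 of Trex1 KO, STING +/- (9.73) came next, though its sum (44225) was not raised. These are the 4 arrays left out below, and the others had 6.60 to 7.92. Without the 4 arrays of raised atrial signal, the members past the threshold numbered 0 for STING +/- and 1 for STING -/-, and the part of these markers was not tested.

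In Trex1 WT hearts, loss of STING changed no member past the threshold. For STING -/- minus +/+, 0 of 58 passed by limma, where 0.0578% of all features did (0.0386% higher and 0.0193% lower), and 1, Rps4x, had an unadjusted p under 0.05. The median was 0.13 over the members and -0.02 over all features. Both STING -/- arrays lay above both STING +/+ arrays for 30 members (51.7%, against 22.8% of all features) and below them for 2 (3.45%, against 26.2%). Atrial marker signal also differed between these arrays, with sums of 137482 to 179651 on Trex1 WT, STING -/- and 17696 to 17762 on Trex1 WT, STING +/+ (6 of 6 genes measured), and its part was not tested.

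The difference of the Trex1 effects between STING +/+ and STING -/- passed for 2 members, Rpl3l and Rpl3, where 9.87% of all features passed, 6.4% higher and 3.47% lower. The median difference of effects was 0.46 over the members and -0.04 over all features. The largest difference of effects that missed the threshold was that of Rplp0 (1.54 ± 0.54, limma adjusted p 0.112). For the other members with a rise on STING +/+, the difference was therefore not established. Without replicate 1 of Trex1 KO, STING +/+ the median difference of effects was 0.77 over the members. Without its replicate 2, or without either Trex1 WT, STING +/+ array, Rpl3l alone passed.

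Genes that work with the ribosome were read from lists of translation and stress genes. Of 15 measured TOP mRNA factors other than ribosomal proteins, 2 rose and 0 fell in Trex1 KO on STING +/+, with a median of 0.03. The share that rose, 13.3%, was near the 11.8% of all features. Eef1a1, which carries tRNA to the ribosome, was 13.55 and 13.72 in WT and 15.18 and 15.03 in KO (1.47 ± 0.31, limma adjusted p 0.00772). Btf3, a partner of nascent chains, rose by 0.69 ± 0.21 (limma adjusted p 0.0418). Eef2, the translocation factor, was 11.01 and 11.30 in WT and 11.14 and 9.54 in KO, with no change past the threshold. Of 25 initiation factors, 3 rose (12%, against 11.8% of all features) and 1 fell, with a median of -0.01. Eif6, which keeps the subunits apart until the large one is mature, was 9.89 and 9.93 in WT and 10.79 and 11.20 in KO (1.08 ± 0.21, limma adjusted p 0.00483). Eif1a (0.89 ± 0.24) and Eif4a1 (0.73 ± 0.19) also rose, and Eif4a2, the helicase paralog of Eif4a1, fell (-0.71 ± 0.18, limma adjusted p 0.0196).

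Of 43 measured ribosome assembly genes, 4 rose and 0 fell in Trex1 KO on STING +/+, with a median of 0.21. The share that rose, 9.3%, was near the 11.8% of all features. Bop1, needed for large subunit rRNA processing, was 6.94 and 7.25 in WT and 7.76 and 8.81 in KO (1.19 ± 0.32, limma adjusted p 0.0236). Nhp2, of the pseudouridine-forming complex, Tsr1 and Wdr43, both of small subunit assembly, rose by 0.86 ± 0.22, 0.77 ± 0.18 and 0.69 ± 0.20. For STING -/- minus +/+ in Trex1 KO, 6 of these genes were lower (14%, against 12.7% of all features) and 1 was higher (2.33%, against 11.3%). Of 15 mTORC1 genes, 2 rose in Trex1 KO on STING +/+, Eif4ebp1 (1.13 ± 0.30), a repressor of cap-dependent initiation, and Sesn2 (1.13 ± 0.32). Eif4ebp2 (-0.96 ± 0.22) and Sesn1 (-1.46 ± 0.34) fell. Among all features, 11.8% were higher and 9.93% lower in this comparison. Of 9 ribosome rescue genes, 0 passed by limma on STING +/+, where 21.7% of all features did.

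The list of eIF2alpha kinases and genes of the integrated stress response, which lowers initiation, gave the largest differences of the lists of translation genes. Of 10 measured genes, 5 rose (50%, against 11.8% of all features) and 0 fell in Trex1 KO on STING +/+, with a median of 1.45. Ddit3, which encodes the stress transcription factor CHOP, was 8.24 and 7.82 in WT and 11.99 and 11.57 in KO (3.75 ± 0.23, limma adjusted p 1.79e-05). On STING +/-, Ddit3 was 8.15 and 8.01 in WT and 10.69 and 10.37 in KO (2.45 ± 0.23, limma adjusted p 0.000913). Here the KO lay between the levels of WT and of KO on STING +/+. No ribosomal protein gene passed in the same comparison, which is near the 1.27% of all features that did. On STING -/-, Ddit3 was 8.42 and 8.32 in WT and 8.38 and 8.49 in KO. Asns (3.70 ± 0.75), Trib3 (3.27 ± 0.36), Chac1 (2.19 ± 0.31) and Ppp1r15a (1.41 ± 0.31) were the other genes that rose on STING +/+. Atf4, the transcription factor of the pathway, had 0.73 ± 0.26 (limma adjusted p 0.071). The measured kinases did not pass on STING +/+. Eif2ak1 had 0.11 ± 0.20, Eif2ak2 1.49 ± 0.58, and Eif2ak3, detected on 1 of these KO arrays and 0 of the WT arrays, 0.24 ± 0.25. For Ddit3, Trib3, Asns and Chac1 replicate 1 of Trex1 KO, STING +/+ was the higher of the pair, whereas most ribosomal protein genes were highest on replicate 2.

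**Figure D5:**
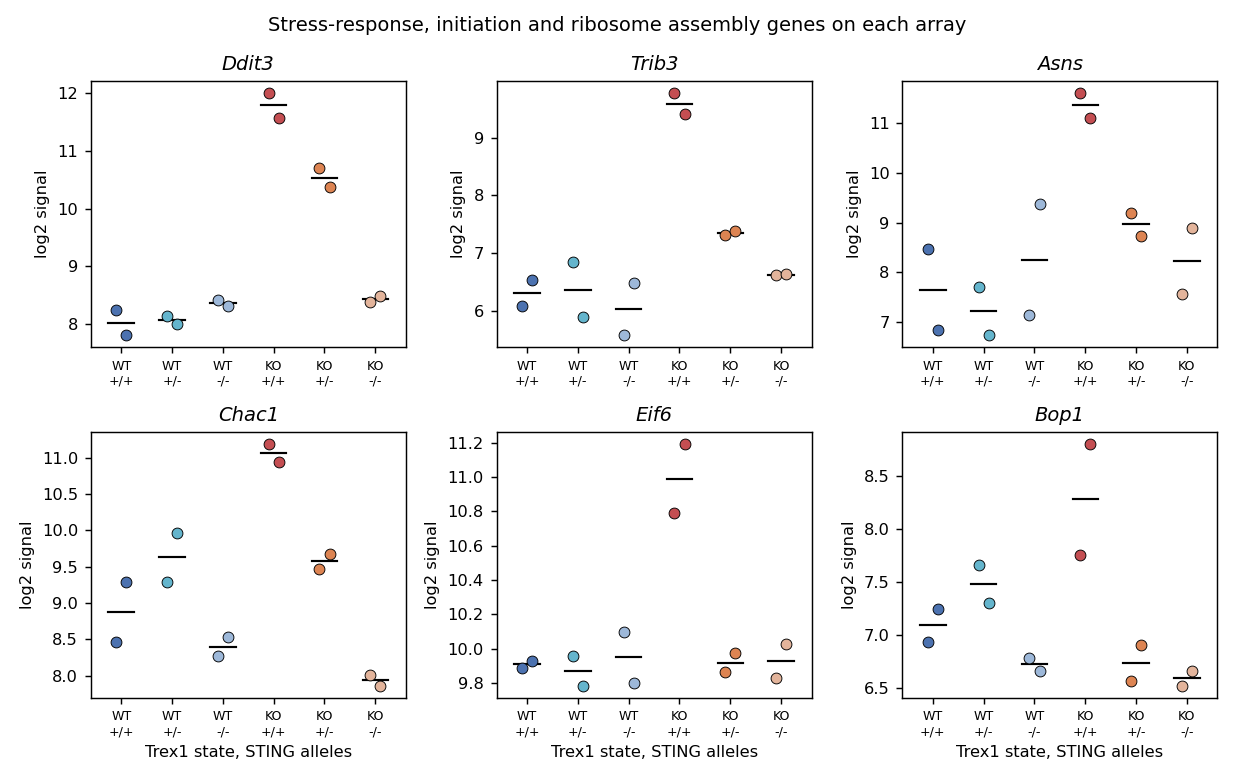
Log2 signal of Ddit3, Trib3, Asns, Chac1, Eif6 and Bop1 on each array, by Trex1 state and STING alleles. Points are arrays and bars are means of 2. The 2 Trex1 KO, STING +/+ arrays are the highest in every panel, and Ddit3 is also raised on the Trex1 KO, STING +/- arrays (10.69 and 10.37).

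Rpl3l was also read beside muscle markers on the same arrays. Of 7 measured cardiomyocyte markers, 4 fell in Trex1 KO on STING +/+, where 9.93% of all features were lower. These were Myh6 (-1.20 ± 0.24), Ryr2 (-1.56 ± 0.27), Tnni3 (-1.14 ± 0.22) and Pln (-0.88 ± 0.20), against -2.20 for Rpl3l. The others, Actc1 (-0.13 ± 0.17), Myl2 (-0.20 ± 0.16) and Myl3 (0.19 ± 0.17), did not pass. Of the 3 measured skeletal muscle markers, Ckm, also a heart gene, fell (-1.71 ± 0.23), and Acta1 (2.62 ± 0.57) and Myl1 (3.25 ± 0.76) rose. The part of a change in muscle cells in the Rpl3l difference was not tested.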

How the data were processed

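Heart RNA was turned into biotinylated cRNA and hybridised to Illumina arrays, per the labels' protocols. The deposited intensity values are linear and not normalized, for 45281 probes on 12 arrays. The deposited score beside each intensity carries the heading of a detection p-value, but is high where the signal is high (rank correlations of 0.979 to 0.988) and so was used as 1 minus a detection p. The authors also deposited processed log2 values centred on each probe's median (array medians -0.01 to 0.01). They differ by at most 0.00505 from quantile-normalized centred log2 signals over 2918 bright probes, which settles their scale and direction. The scanner, its software, slides and scan dates are not given here.

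In R 4.3.3 with limma 3.58.1, signals were normalized with neqc (offset 16). The filter kept the 22810 probes that 2 or more arrays detected (p under 0.05), the brightest stood for each gene, and a limma model with 1 mean per genotype was fitted to the 12 arrays together (lmFit, eBayes, 6 residual degrees of freedom, 7 contrasts), with Benjamini-Hochberg adjustment over all 15561 features. The number of arrays limits the precision. Members and gene lists were chosen with earlier results of these data known. Named genes are the targeted genes, up to 8 largest rises and falls per contrast among members past the threshold, the 5 brightest, 5 dimmest and 5 most variable members, paralog pairs, stalk genes, Rpsa, members sharing a chromosome with a targeted gene, and up to 4 genes per list. Others, such as Rpl38, Rps4x, Rps15a, Eef2, Atf4, Hnrnpa2b1 and Xist, were added after their values were seen. The pipeline was tested on simulated data. Alternatives are given in the closing section.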

Additional observations from a re-analysis of the deposited data

Results flagged for a closer look

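Both results below stand out because the Trex1 effect differed between STING states by a test of the difference itself. For Rpl3l the Trex1 effect on STING +/+ minus that on STING -/- was -2.36 ± 0.30 (limma adjusted p 0.00173), from effects of -2.20 and 0.16 on the log2 scale. For Rpl3 the same difference was 1.53 ± 0.41 (limma adjusted p 0.0445), from effects of 1.30 and -0.23. Under the 23 alternatives, the Rpl3 difference kept its direction (1.11 to 1.96) but missed the threshold in 15. That of Rpl3l stayed past it in all 23 (-2.62 to -2.04).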

How the results depend on the processing

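Rpl3l was past the threshold in the same direction under all 24 alternatives for Trex1 KO against WT on STING +/+ (-2.33 to -1.77). The 10 rises in this comparison kept their direction in all 24 but missed the threshold in some. Rplp1 missed it in 17, Rpl12 in 15, Rpl39 in 14 and Rplp0 in 10. Rps19 missed it in 8, Rps12, Rps26 and Rps27l in 7 each, Rpl13a in 6 and Rpl3 in 5. For STING +/- minus +/+ in Trex1 KO, Rpl3l missed the threshold when only the groups compared were fitted and without the arrays with raised atrial signal. In that comparison Rpl3 missed it in 13 of 24 alternatives and Rpl39 in 16. For STING -/- minus +/+ in Trex1 KO, Rpl3 missed it in 16, Rpl39 in 14, Rplp0 in 8 and Rpl13a in 3, while Rpl3l passed in all 24. The counts of members past the threshold depended on the processing, and the cause was not tested. The shares of all features past it under the same settings are not given here. The counts below therefore do not show whether the members moved apart from other features. The count of 11 for loss of Trex1 on STING +/+ became 29 with median scaling, 2 with array weights, 1 with only the groups compared, and 2 without the arrays with a low Hnrnpa2b1 signal or without those with a raised atrial signal. With 1 array left out it was 1 to 32. For STING +/- minus +/+ in Trex1 KO (3) it was 10 with quantile normalization without background correction, 10 with median scaling, 10 with the authors' values, 5 with no filter, 11 with a variance trend and robust prior, 1 with array weights, 0 with only the groups compared, 1 with Xist status as a term, 1 without the low Hnrnpa2b1 arrays, 0 without the raised atrial arrays, and 1 to 32 with 1 array left out. For STING -/- minus +/+ in Trex1 KO (5) the values in the same order were 14 with quantile normalization, 16 with median scaling, 15 with the authors' values, 14 with the variance trend, 3 with array weights, 1 with only the groups compared, 2 with Xist status, 2 without the low Hnrnpa2b1 arrays, 1 without the raised atrial arrays, and 1 to 29 with 1 array left out. For the difference of Trex1 effects (2) it was 5 with quantile normalization, median scaling, the authors' values or the variance trend, 1 with array weights, only the groups compared, the most variable probe or no low Hnrnpa2b1 arrays, and 1 to 20 with 1 array left out. Settings without the low Hnrnpa2b1 or raised atrial arrays were chosen after seeing the data, and the latter leaves no fit for comparisons that need STING -/- in Trex1 WT. Low Hnrnpa2b1 refers to probe ILMN_2615855 only. Without replicate 1 of Trex1 KO, STING -/-, the Trex1 difference on STING -/- reversed for Rpl3 (0.19) and Rpl3l (-0.10), and with 1 array left out these differences ran from -0.66 to 0.19 and from -0.10 to 0.42, none past the threshold. Median scaling moved the median of all features to 0.13 for Trex1 KO against WT on STING +/+, 0.14 on STING +/- and 0.15 for the difference of effects. When 1 array of a group is left out, the lone array is assumed to vary like the other groups. No paired analysis was possible because the labels give no replicate numbers shared between groups.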
